A study of Mus musculus with 14 samples.

Results

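The genes described here are 10 secreted cues, receptors and binding proteins of the CXCL12 and insulin-like growth factor (IGF) systems: Cxcl12, Cxcr4, Ackr3, Igf1, Igf2, Igf1r, Igfbp2, Igfbp3, Igfbp4 and Igfbp5. They were chosen by symbol in the normalized count tables of both experiments, which list 51211 gene symbols, and all 10 were found in both. RNA was measured in the whole olfactory epithelium of 14 mice at postnatal day 5 (P5), each library holding the tissue of 1 mouse. In the Kir2.1 experiment, 3 mice that carry both OMP-IRES-tTA and tetO-Kir2.1-IRES-tauLacZ, in which the transcription factor tTA made from the Omp locus of mature olfactory sensory neurons (OSNs) switches on the potassium channel Kir2.1 and silences these cells, were compared with 3 controls that carry OMP-IRES-tTA alone as heterozygotes. In the PEA experiment, 4 wild-type mice kept with the odorant 2-phenylethylamine (PEA) from P0 to P5 were compared with 4 unexposed wild-type mice. The labels give C57BL/6 as the strain of all mice, whereas the methods of the study name CD-1 for odor exposure. The labels also call the silenced mice Kir2.1-Off, a name the study uses for adults fed doxycycline, but these pups were taken at P5 and are called Kir2.1 mice here. The study took the Kir2.1 controls from the litters of the Kir2.1 mice, but no source used here ties a given control to a given Kir2.1 pup.

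CXCL12 is a chemokine that signals through the G-protein-coupled receptor CXCR4, while ACKR3 binds the same ligand, recruits arrestin and clears it from the tissue. In the developing nose this axis is known for guiding neurons that migrate out along olfactory axons. IGF1 and IGF2 are growth factors that act on the receptor tyrosine kinase IGF1R, and secreted IGF-binding proteins hold, carry or release them. IGF signalling is known in this system for its part in the targeting of OSN axons to the lateral olfactory bulb.

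The level of the transgene matched the genotype labels and went against the name Kir2.1-Off. Kcnj2, which encodes Kir2.1, ranged from 986 to 1274 normalized counts over the 3 controls and from 17926 to 24193 over the 3 silenced mice. A normalized count here is the estimated number of reads of a gene after scaling by the authors with the tool DESeq2, which adjusts for library depth. Whether a factor per gene was also applied is not known. The experiments were normalized apart from each other. The normalized counts of a library summed to between 33049111 and 34198478 in the Kir2.1 experiment and between 11476120 and 12467331 in the PEA experiment, after this scaling, so library depth is unknown. In 4 libraries (Kir2.1 control 1, PEA controls 1 and 2 and PEA exposed 1) the mean log2 level of 339 vomeronasal receptor genes was 2.82 to 3.76, against 0.77 to 2.31 in the other 10. The limit between these sets was 2.5, and PEA control 3, at 2.31, was the nearest below it. In the PEA experiment controls 1, 2 and 3 and exposed mouse 1 were at 2.31 or above, and the other mice were lower. This RNA was thus unbalanced between the PEA groups. For the members whose groups did not overlap, the log2 differences are given below with and without the 4 libraries above the limit. PEA control 3 stays in the smaller PEA set. Xist, the RNA of the inactive X chromosome of females, was at 3.02 and 22.1 in control 3 and Kir2.1 mouse 3 against 11955 to 14299 in the other mice of that experiment. In the PEA experiment it was at 8.14 to 14.4 in controls 1 and 2 and exposed mouse 3, and at 12509 to 24975 in the other mice.

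All 10 genes are protein-coding in the GENCODE vM21 annotation of the GRCm38 mouse genome. Cxcl12 (ENSMUSG00000061353) lies on chromosome 6 from 117168535 to 117181367, on the plus strand. Igf2 (ENSMUSG00000048583) lies on chromosome 7 from 142650766 to 142666816 on the minus strand, where it overlaps the antisense gene Igf2os. Igfbp2 (ENSMUSG00000039323, chromosome 1, 72824503 to 72852474, plus strand) and Igfbp5 (ENSMUSG00000026185, chromosome 1, 72857932 to 72874884, minus strand) are neighbours whose 3′ ends face each other. The other members are Cxcr4 (chromosome 1, 128588199 to 128592293), Ackr3 (chromosome 1, 90203980 to 90216751), Igf1 (chromosome 10, 87858265 to 87937042), Igf1r (chromosome 7, 67952827 to 68233668), Igfbp3 (chromosome 11, 7206086 to 7213923) and Igfbp4 (chromosome 11, 99041244 to 99054392).

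The promoters of the 5 genes whose levels did not overlap between Kir2.1 and control mice are shown, since these genes carry most of what follows. RefSeq promoters on GRCm38.p6 matched all 10 genes, and each line gives the 120 bases before a listed start, 5′ to 3′ on the strand of the gene. Capitals mark every match of the TATA box letters TATAAA or the GC box letters GGGCGG on either strand, so that TTTATA and CCGCCC count too.
Cxcl12 (chr6:117168415-117168534, plus strand): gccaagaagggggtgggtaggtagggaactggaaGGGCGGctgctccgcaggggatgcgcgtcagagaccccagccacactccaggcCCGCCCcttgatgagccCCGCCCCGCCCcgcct
Igf1 (chr10:87860991-87861110, plus strand): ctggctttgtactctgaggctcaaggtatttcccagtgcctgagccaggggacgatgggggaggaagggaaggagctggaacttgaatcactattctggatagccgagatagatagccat
Igf2, the most downstream of 4 listed starts (chr7:142657497-142657616, minus strand): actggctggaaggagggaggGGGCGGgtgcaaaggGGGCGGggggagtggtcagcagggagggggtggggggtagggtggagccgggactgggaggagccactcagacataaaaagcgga
Igfbp2, the first of 2 listed starts (chr1:72824360-72824479, plus strand): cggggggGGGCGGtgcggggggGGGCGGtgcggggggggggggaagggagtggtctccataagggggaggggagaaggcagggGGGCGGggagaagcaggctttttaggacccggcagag
Igfbp4 (chr11:99041124-99041243, plus strand): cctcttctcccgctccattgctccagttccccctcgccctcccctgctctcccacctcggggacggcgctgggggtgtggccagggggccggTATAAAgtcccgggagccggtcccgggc
These 5 windows differ in the letters they hold. The Cxcl12 window held 4 GC boxes, the Igfbp2 window 3 and the Igf2 window 2. The Igfbp4 window held 1 TATA box, and the Igf1 window held neither. The other Igf2 starts held 0, 0 and 1 GC boxes, and the other Igfbp2 start 0. Of the members not shown, Cxcr4 held 3 GC boxes and 2 TATA box matches, Ackr3 held 1 of each, and Igf1r held 2 GC boxes. Igfbp3 and Igfbp5 held neither. Of 32851 mouse promoter windows of the same length, 26.5% held a GC box and 6.34% a TATA box.

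In the control mice the 10 genes spanned a wide range of levels. To compare genes, the normalized count was divided by the length of all exons of the gene in kb. This length runs from 1.81 kb for Cxcr4 to 16.8 kb for Igf1r among the members. It counts every annotated exon, used in this tissue or not, so the order of genes depends on it. In the Kir2.1 controls, Igfbp5, whose product binds IGFs and extracellular matrix, stood highest with a mean of 2732 ± 274 normalized counts per kb (SD, n = 3), at the percentile 97.2 of 19371 genes ranked. Igf2 followed with 2390 per kb, and the values of these 2 genes overlapped. Igfbp2 (1560), Cxcr4 (1481) and Igfbp4 (1379 per kb) came next, each overlapping with the following of these 3. Below them stood Ackr3 with 739 per kb, and then Igfbp3 with 394 and Igf1r with 377, which overlapped. Cxcl12 (174 per kb) lay near the middle of all genes, whose median was 130 per kb. Igf1 was the lowest with 23.7 per kb, at the percentile 22.5.

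In the PEA controls Igfbp5 was again the highest member with 744 normalized counts per kb and Igf1 the lowest with 47.2, just under the median of 16977 genes. Between them stood Cxcr4 (447), Igf2 (368), Igfbp4 (280), Igfbp3 (221), Igfbp2 (162), Igf1r (127), Ackr3 (80.4) and Cxcl12 (71.1 per kb). Only the highest and the lowest gene were separated from their neighbour in this order without overlap between mice. The 2 library types (poly-A selected and rRNA-depleted) and the separate normalization do not allow a test of levels between experiments. In every control mouse the ligand Cxcl12 lay below its receptor Cxcr4 per kb of exon, with exon lengths of 8.18 and 1.81 kb. Without the division by length it was also lower in each, but by less, as with 622 against 692 in PEA control 1.

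**Figure D1:**
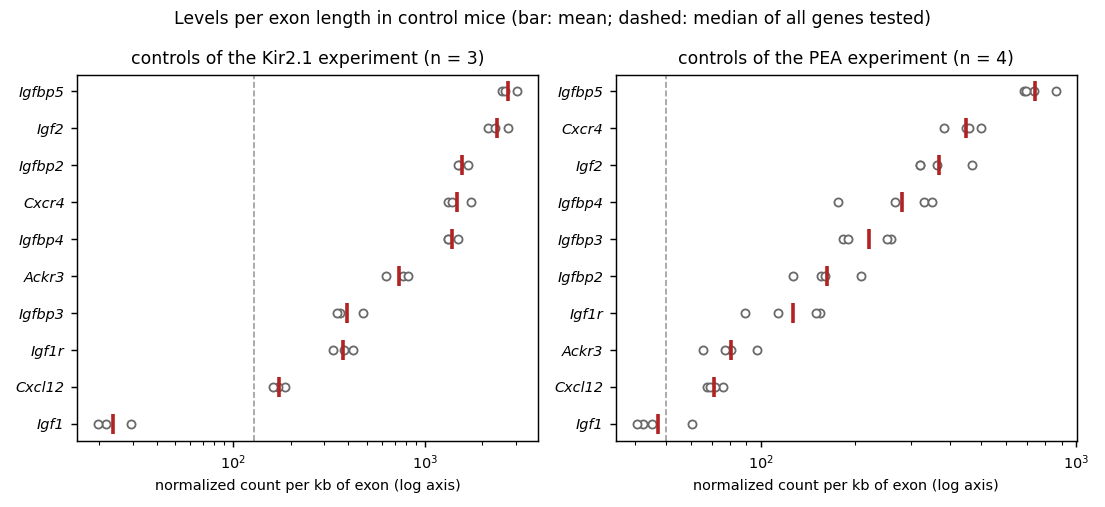
Levels of the 10 genes in control mice, as normalized counts per kb of exon on a log axis, for the Kir2.1 experiment (left, 3 mice) and the PEA experiment (right, 4 mice). Circles are mice, red bars are means and the dashed line is the median of all genes tested. Igfbp5 is highest in both (means 2732 and 744) and Igf1 is lowest (23.7 and 47.2).

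The first comparison asked how these genes differ when OSNs are silenced. No member passed the threshold, which was 0.05 for the limma p after Benjamini-Hochberg adjustment over 19807 genes, of which 0.353% passed. The study ran DESeq2 on estimated counts and called more genes at this threshold, in both experiments, than limma did here. Of the 10 members, 7 had a mean log2 level above that of the controls and 3 below (51.2% of all genes were above), with a median difference of 0.29 against 0.0056 over all genes tested. The ligands Cxcl12, Igf1 and Igf2 and the binding proteins Igfbp2 and Igfbp4 had an unadjusted limma p under 0.05, all with the higher level in Kir2.1 mice. The share of all genes with such a p and a higher level was 4.93%. For the same 5 genes every Kir2.1 mouse lay above every control mouse, a pattern seen in 7.26% of all genes tested. All differences are on the scale of log2(normalized count + 1).

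Cxcl12 stood at 1537, 1405 and 1322 normalized counts in the 3 control mice and at 2032, 1839 and 1762 in the 3 Kir2.1 mice. The lowest Kir2.1 mouse was thus above the highest control. The means were 1421 ± 108 and 1877 ± 139 (SD, n = 3 per group), a ratio of 1.32. The log2 difference was 0.40 (SE 0.09, 95% interval 0.19 to 0.61), with an adjusted p of 0.169 by limma with Benjamini-Hochberg adjustment. The exact permutation test (two-sided) gave p = 0.1, the smallest value that 3 mice against 3 allow.

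The receptors of CXCL12 showed no such separation. Cxcr4 had 2394, 3139 and 2501 normalized counts in control mice and 2666, 2517 and 2737 in Kir2.1 mice, all of the latter within the control range. Its log2 difference was -0.011 (SE 0.11, 95% interval -0.27 to 0.25), with an limma adjusted p = 0.986. The values of Ackr3 were 2581, 2107 and 2731 against 2343, 2564 and 2437, again within the control range, with a log2 difference of -0.0068 (SE 0.11, 95% interval -0.26 to 0.24, limma adjusted p = 0.992). These intervals limit a difference to about those sizes and do not show that the levels were equal.

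Igf2, the growth factor with the higher level per kb, had 12199.8, 13369.8 and 15463 normalized counts in control mice and 20746, 18781 and 17345 in Kir2.1 mice. The groups did not overlap. The means were 13678 ± 1653 and 18957 ± 1707 (SD, n = 3 per group; ratio 1.39), the log2 difference was 0.47 (SE 0.11, 95% interval 0.22 to 0.73) and the limma adjusted p was 0.177. The antisense gene Igf2os, whose reads cannot be told from those of Igf2 without strand, was assigned 34.6 ± 4.91 and 55.5 ± 8.31 normalized counts (SD, n = 3 per group). The log2 difference of Igf2os was 0.67 (SE 0.24, limma adjusted p = 0.354). These estimates were far below Igf2, but without strand they cannot show the share of Igf2os in the Igf2 reads. H19, a noncoding RNA of the same imprinted cluster, stood at 20262, 25415 and 27676 in controls and at 33738, 31663 and 30322 in Kir2.1 mice, also without overlap. Its log2 difference was 0.39 (SE 0.12, limma adjusted p = 0.291).

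Igf1 was lower in level per kb, with 216, 197 and 291 normalized counts in control mice and 444, 305 and 311 in Kir2.1 mice. The groups did not overlap, but the highest control and the lowest Kir2.1 mouse were close. The antisense gene Igf1os that overlaps it was assigned at most 4.95 normalized counts in any mouse of the experiment, with the same limit of reads without strand. The means were 235 ± 49.3 and 354 ± 78.6 (SD, n = 3 per group; ratio 1.51), and the log2 difference of 0.59 had a wide interval (SE 0.21, 95% interval 0.10 to 1.07, limma adjusted p = 0.348). Its unadjusted limma p of 0.0237 was above 0.05 without control 1, control 2 or Kir2.1 mouse 1, and with the vomeronasal receptor level as a covariate, reaching at most 0.0779.

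Igf1r, the receptor of both growth factors, had 5558, 6348 and 7069.7 normalized counts in control mice and 5522, 6334 and 6359 in Kir2.1 mice. The groups overlapped. The log2 difference was -0.06 (SE 0.11, 95% interval -0.30 to 0.19, limma adjusted p = 0.913). Igf2r, the receptor that takes up and degrades IGF2, stood at 3826 ± 425 and 4444 ± 352 (SD, n = 3 per group; log2 difference 0.22, SE 0.10, limma adjusted p = 0.504).

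Among the binding proteins, Igfbp4, which holds IGFs away from their receptor until a protease cuts it, had the smallest p of the 10 members. It stood at 5858, 5869 and 6546 normalized counts in control mice and at 10086, 8223 and 8139 in Kir2.1 mice. The groups were well apart, with means of 6091 ± 394 and 8816 ± 1100 (SD, n = 3 per group; ratio 1.45). The log2 difference was 0.53 (SE 0.10, 95% interval 0.29 to 0.77), and the adjusted p was 0.112 by limma with Benjamini-Hochberg adjustment, above the threshold.

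Igfbp2, which binds IGF2 more tightly than IGF1, had 2775, 2757 and 3110.0 normalized counts in control mice and 3324, 3286 and 3400.0 in Kir2.1 mice. The groups did not overlap, yet the ratio of the means was only 1.16 (log2 difference 0.21, SE 0.07, 95% interval 0.04 to 0.38, limma adjusted p = 0.332). Its unadjusted limma p of 0.0202 was above 0.05 without control 1, control 2 or Kir2.1 mouse 3, with the vomeronasal receptor covariate, and with the median of each library centred. Its neighbour Igfbp5 had 15155, 15795 and 18269 against 18988, 17289 and 17624, with overlap (log2 difference 0.13, SE 0.09, 95% interval -0.08 to 0.34, limma adjusted p = 0.669).

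Igfbp3, the main carrier of IGFs in blood, had 1127, 1088 and 1489 normalized counts in control mice and 1841, 1638 and 1285 in Kir2.1 mice. Kir2.1 mouse 3 lay below control 3, so the groups overlapped. The log2 difference was 0.36 (SE 0.17, 95% interval -0.03 to 0.76), with an limma adjusted p = 0.501. Cxcl12, Igf2 and Igfbp4 kept an unadjusted limma p under 0.05 in all 18 alternative fits of this comparison, with log2 differences of 0.34 to 0.46, 0.39 to 0.57 and 0.43 to 0.58, and in none of these fits did any member have an adjusted p under 0.05. Without control 1, the library high in vomeronasal receptor RNA, the log2 differences were 0.46 for Cxcl12, 0.54 for Igf1, 0.39 for Igf2, 0.19 for Igfbp2 and 0.50 for Igfbp4.

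**Figure D2:**
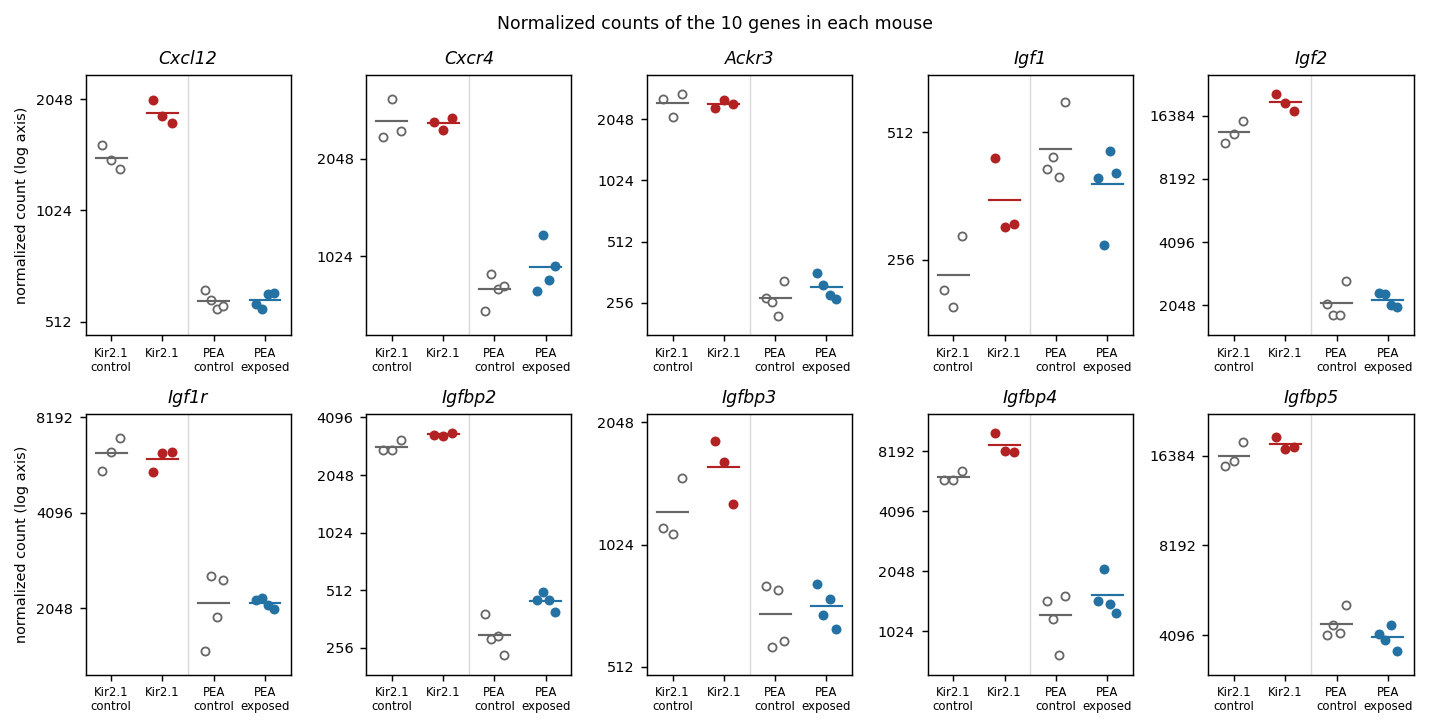
Normalized counts of the 10 genes in each of the 14 mice, on a log axis that differs between panels. Open circles are control mice, filled circles are Kir2.1 (red) or PEA-exposed (blue) mice and bars are group means. Kir2.1 mice lie above all their controls for Cxcl12, Igf1, Igf2, Igfbp2 and Igfbp4, and PEA-exposed mice lie above all their controls for Igfbp2 alone.

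The whole epithelium holds many cell types, and in such bulk samples fewer cells of a type and less RNA per cell cannot be told apart. All 10 markers of mature OSNs had the lower level in Kir2.1 mice at an unadjusted limma p under 0.05 (6.2% of all genes), 9 of them without overlap (9.04% of all genes), and their summed level was 97607 to 110262 against 133726 to 147989 in controls. Omp and Slc17a6 fell, by 0.60 (limma adjusted p = 0.0466) and 0.76 (limma adjusted p = 0.00958) on the log2 scale. All 8 fibroblast markers had the higher level, 5 of them at an unadjusted limma p under 0.05 (4.93% of all genes) and none at an adjusted p under 0.05. The median log2 difference of the 8 markers was 0.58. Their summed level, 67765 to 188617 in controls and 129657 to 173477 in Kir2.1 mice, overlapped.

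Several other lists also lay to 1 side. All 7 cartilage and bone markers tested had the higher level (median log2 difference 0.52), 4 of them at an unadjusted limma p under 0.05 (4.93% of all genes). The summed levels of the 7 overlapped, at 4807 to 11345 and 9031 to 9427. The medians were 0.45 for pericyte, 0.34 for horizontal basal cell and 0.26 for macrophage markers, with every marker above 0, and 0.30 for endothelial markers. They were 0.20 for neutrophil, 0.09 for ensheathing and Schwann cell, 0.02 for immature OSN, -0.04 for sustentacular cell and -0.08 for progenitor markers. The 3 vomeronasal neuron markers were all lower, with a median of -0.99, and control 1, the library high in vomeronasal receptor RNA, is among the controls. The summed ensheathing and Schwann cell markers did not overlap, at 8765 to 9703 in controls and 9738 to 10269 in Kir2.1 mice. None of the markers tested in these lists was at 0 in all mice. The part of fibroblast, bone or other non-neuronal RNA in the higher levels of Cxcl12, Igf1, Igf2, Igfbp2 and Igfbp4 was not tested. Among single markers, Prrx1, a transcription factor of mesenchyme, stood at 517, 462 and 527 in controls and 896, 750.3 and 664 in Kir2.1 mice.

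Other genes of these pathways were taken from lists by role. Of 15 chemokine ligands tested among 32 listed, 3 had an unadjusted limma p under 0.05, all with the higher level in Kir2.1 mice. The share of all genes with such a p and a higher level was 4.93%, and 6.2% with a lower level. Of the 3 ligands, Cxcl10 (means of 6.42 and 18.8 normalized counts) passed the filter on low values, a mean of at least 10 over the experiment, only through its Kir2.1 mice. Its difference is therefore not read. Cxcl5 had means of 86.2 and 138 (log2 difference 0.67) and Cxcl16 of 404 and 542 (0.43), with limma adjusted p = 0.357 and 0.409. Of 11 chemokine receptors tested among 20 listed, none had such a p. The ligands, Cxcl10 included, lay above 0 in 13 and below in 2 cases, with a median log2 difference of 0.32. For the receptors these counts were 8 and 3, with a median of 0.23.

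Among 15 genes of CXCL12 receptor coupling and ligand processing the median log2 difference was 0.08. Mmp2, a matrix protease that can cut CXCL12, stood at 2787, 2771 and 2865 normalized counts in controls and 4576, 4342 and 3384 in Kir2.1 mice, without overlap (log2 difference 0.53, SE 0.12, limma adjusted p = 0.154). Dpp4, a peptidase that also trims CXCL12, lay lower, at 554 ± 96.0 and 427 ± 31.0 (SD, n = 3 per group; log2 difference -0.36, limma adjusted p = 0.413).

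Of 15 other IGF family genes tested among 19 listed, 3 had the higher and 1 the lower level at an unadjusted limma p under 0.05. The shares of all genes were 4.93% and 6.2%, and the median of the list was 0.02. Igfbp6, a binding protein that prefers IGF2, stood at 73.3, 66.5 and 78.5 normalized counts in controls and at 126, 132 and 174 in Kir2.1 mice. The groups were apart, with a log2 difference of 0.96 (SE 0.18) and an limma adjusted p = 0.112. Htra1, a protease that cuts IGF-binding proteins (0.69), and Igfbp7 (0.51) also lay higher, and Pappa, the protease that cuts IGFBP4, lay lower at 790 ± 56.5 and 627 ± 84.0 (SD, n = 3 per group; log2 difference -0.34, limma adjusted p = 0.354).

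The genes that relay the signal inside the cell were spread around 0. Of 33 tested, 2 had the higher and 2 the lower level at an unadjusted limma p under 0.05 (4.93% and 6.2% of all genes), with a median of 0.0017. Rptor, a subunit of the mTOR complex, had a log2 difference of -0.25, and the adaptors Grb14 and Shc1 had 0.41 and 0.17. Of 12 imprinted growth genes tested, H19 and the cell cycle inhibitor Cdkn1c (log2 difference 0.36, limma adjusted p = 0.234) had such a p, both with the higher level in Kir2.1 mice.

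**Figure D3:**
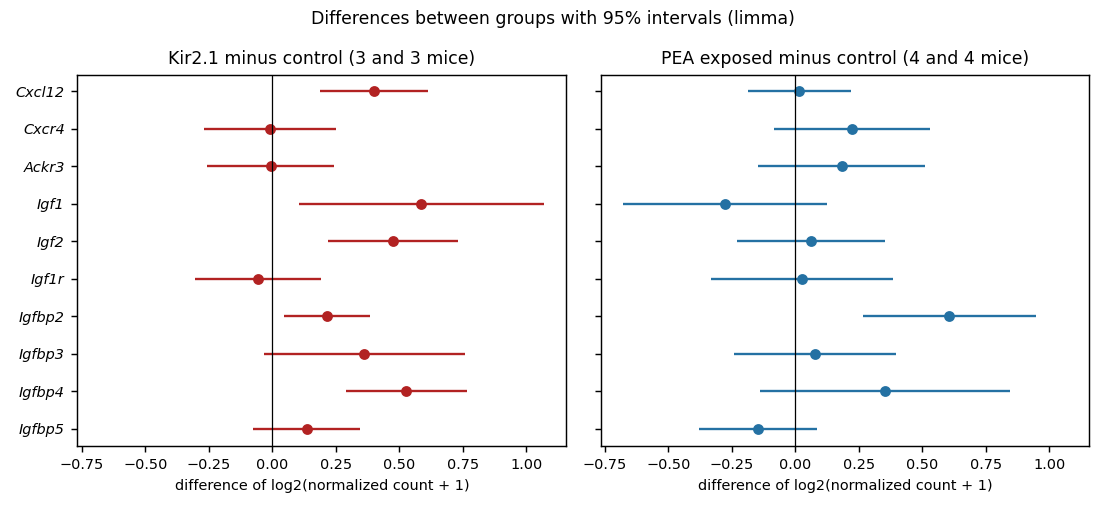
Difference of each gene between groups on the log2(normalized count + 1) scale with its 95% interval by limma, for Kir2.1 minus control (left, 3 and 3 mice) and PEA exposed minus control (right, 4 and 4 mice). The intervals of Cxcl12, Igf1, Igf2, Igfbp2 and Igfbp4 lie above 0 on the left, and that of Igfbp2 (0.26 to 0.95) lies above 0 on the right, before adjustment for the number of genes tested.

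The second comparison asked how the same genes differ after odor exposure. Again no member passed the adjusted threshold over 17322 genes tested, of which 0.179% passed by limma. The median log2 difference of the 10 genes was 0.07, against -0.02 over all genes, with 8 above 0 and 2 below (46.5% of all genes were above). Igfbp2 was the single member with an unadjusted limma p under 0.05 and the single one whose groups did not overlap, against 8.93% and 5.46% of all genes that had these patterns with the higher level in exposed mice.

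Igfbp2 had 384, 286, 296 and 234 normalized counts in the 4 unexposed mice and 458, 502, 457 and 392 in the 4 exposed mice. The lowest exposed mouse was just above the highest control, PEA control 1. The means were 300.1 ± 62.4 and 452 ± 45.1 (SD, n = 4 per group; ratio 1.51). The log2 difference was 0.61 (SE 0.15, 95% interval 0.26 to 0.95), with an adjusted p of 0.135 by limma with Benjamini-Hochberg adjustment. The exact permutation test gave p = 0.0286, the smallest value that 4 mice against 4 allow. It treats each pup as 1 unit, although the odor was given per cage. With Xist as a covariate the log2 difference was 0.65 (SE 0.15). Without PEA controls 1 and 2 and PEA exposed 1, the libraries high in vomeronasal receptor RNA, the log2 difference was 0.77 (SE 0.18, limma adjusted p = 0.224).

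Cxcl12 differed little between these groups. It had 622, 586, 553 and 565 normalized counts in controls and 573, 555, 608 and 614 in exposed mice, with a log2 difference of 0.02 (SE 0.09, 95% interval -0.19 to 0.22, limma adjusted p = 0.957). Cxcr4 had 692, 903, 813 and 826 against 796, 1185, 862 and 956, with overlap (log2 difference 0.22, SE 0.14, 95% interval -0.08 to 0.53, limma adjusted p = 0.481). Without the 3 libraries high in vomeronasal receptor RNA the groups of Cxcr4 did not overlap, but fewer mice separate more easily. PEA control 3, the next highest in this RNA, was kept there. With the vomeronasal receptor level as a covariate the log2 difference of Cxcr4 was 0.14 (SE 0.15). The share of all genes without overlap in the smaller set of libraries was not taken. Ackr3 stood at 269 ± 43.6 and 304 ± 41.6 (SD, n = 4 per group; log2 difference 0.18, 95% interval -0.15 to 0.51, limma adjusted p = 0.605).

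The growth factors overlapped between the PEA groups. Igf1 had 419, 448, 401 and 602 normalized counts in controls and 398, 276, 463 and 410.1 in exposed mice, with overlap (log2 difference -0.28, SE 0.18, 95% interval -0.68 to 0.12, limma adjusted p = 0.501). Igf2 had 2082, 1835, 1829 and 2677 against 2337, 2308, 2057 and 2003. Its log2 difference was 0.06 (SE 0.13, 95% interval -0.23 to 0.35, limma adjusted p = 0.865). H19 lay at 6603 ± 841 and 5971 ± 463 (SD, n = 4 per group; log2 difference -0.14, limma adjusted p = 0.604).

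Igf1r was spread widely among the control mice, at 1502, 2596, 1913 and 2519 normalized counts, and narrowly among the exposed, at 2165, 2205, 2096 and 2028. The exposed mice all fell inside the control range (log2 difference 0.03, 95% interval -0.33 to 0.39, limma adjusted p = 0.955). Igfbp4 also varied among mice of 1 group, from 778 to 1541 in controls and from 1269 to 2094 in exposed mice (log2 difference 0.35, 95% interval -0.14 to 0.85, limma adjusted p = 0.487), and its difference was 0.15 without control 3. Igfbp3 and Igfbp5 had log2 differences of 0.08 (95% interval -0.24 to 0.40) and -0.15 (95% interval -0.38 to 0.09), with overlapping groups.

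Some cell type markers also had different levels in the PEA groups. Krt14, a keratin of horizontal basal cells, stood at 187 ± 29.7 and 287 ± 20.9, and Cbr2, a carbonyl reductase of sustentacular cells, at 7355 ± 1019 and 10775 ± 575 (SD, n = 4 per group), each with an unadjusted limma p under 0.05 and with limma adjusted p = 0.108 and 0.0847. All 5 basal cell markers had a log2 difference above 0 (median 0.25). Of the 7 sustentacular markers 5 lay above 0 and 2 below, Sox2 (-0.18) and Hes1 (-0.13), with a median of 0.11. The summed sustentacular markers ranged from 30784 to 40739 in controls and from 38557 to 43868 in exposed mice, and the summed basal cell markers from 971 to 1820 and from 1391 to 1725, both with overlap. The 7 cartilage and bone markers summed to 1651 to 3224 in controls and 1312 to 1541 in exposed mice, without overlap, and 2 of them singly had the lower level without overlap (3.86% of all genes). The fibroblast markers summed to 29574 to 41580 and 27106 to 33757, with overlap. Of these 8 markers 1 lay above 0 and 7 below, 2 of them without overlap, with a median of -0.17. The part of these cell types in the level of Igfbp2 was not tested.

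Among the pathway genes in the PEA experiment, Mif, a cytokine that can also bind CXCR4 and ACKR3, stood at 167, 178, 157 and 175 normalized counts in controls and 234, 262, 258 and 304 in exposed mice. Every exposed mouse was above every control (log2 difference 0.64, SE 0.12, limma adjusted p = 0.0765). Of 15 chemokine ligands tested, Mif, Ccl20 (0.88) and Ccl27a (0.63) had an unadjusted limma p under 0.05, all with the higher level (8.93% of all genes).

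Of the 15 coupling and processing genes, 2 had the higher and 2 the lower level at an unadjusted limma p under 0.05 (8.93% and 6.04% of all genes). The smallest p was that of the matrix protease Mmp9, at 430 ± 92.9 and 274 ± 31.3 (SD, n = 4 per group; log2 difference -0.63, limma adjusted p = 0.138). Among 13 other IGF family genes tested, the insulin receptor Insr alone had such a p, at 1798 ± 138 and 1529 ± 145 (SD, n = 4 per group; log2 difference -0.24, limma adjusted p = 0.311). Of 33 relay genes, 12 lay above 0 and 21 below. At an unadjusted limma p under 0.05, 3 had the higher and 4 the lower level (8.93% and 6.04% of all genes). Among them were the kinases Mtor (0.33) and Rps6kb1 (-0.30) and the translation repressor Eif4ebp1 (0.45). Of 12 imprinted growth genes, 6 lay above 0 and 6 below, and at such a p Meg3 (0.71) had the higher level. Dlk1 also had such a p, but its mean was 6.25 in exposed mice. It passed the filter on low values only through its controls, and its difference is therefore not read. No gene of these pathway lists had an adjusted p under 0.05 in either experiment.

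**Figure D4:**
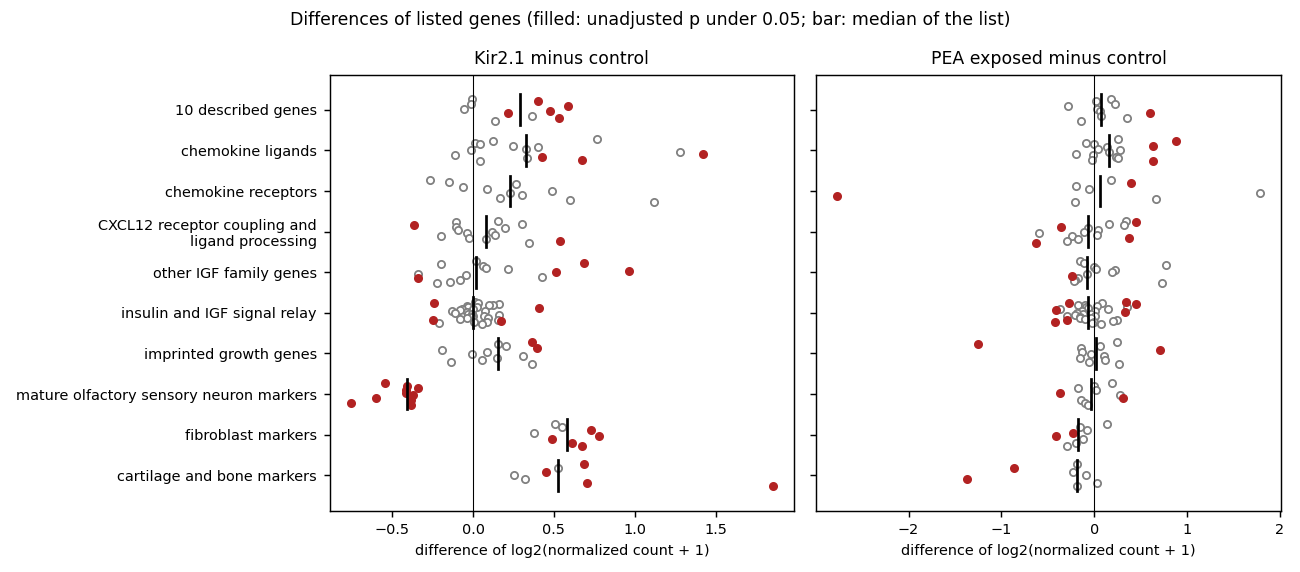
Log2 difference of each tested gene by list, for Kir2.1 minus control (left) and PEA exposed minus control (right). Filled circles have an unadjusted limma p under 0.05, black bars are list medians, and the horizontal scales differ. On the left the medians are 0.29 for the 10 genes, 0.58 for fibroblast markers and -0.41 for mature OSN markers. On the right they are 0.07, -0.17 and -0.03.

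Within groups, members varied together to different degrees. Over the 14 libraries, with the group mean of each gene subtracted from its log2 level, the highest correlations between members were those of Igf2 with Igfbp5 (Pearson r = 0.73, with 0.92 in the Kir2.1 and 0.65 in the PEA libraries alone), Igf1 with Igfbp5 (0.72, with 0.88 and 0.64) and Igf2 with Igfbp4 (0.70, with 0.83 and 0.71). The pooled value of Ackr3 with Igf2 was also 0.70, but it was 0.16 in the Kir2.1 and 0.89 in the PEA libraries. The lowest was that of Cxcl12 with Igf1r (-0.59, with -0.97 and -0.48). Some pairs changed sign between the experiments, as did Igf1 with Igfbp2 (0.63 and -0.65). Of 16705 genes tested in both experiments, those most like a member in this measure were Sparcl1 for Igfbp3 (0.93), Kank2 and Rdh13 for Igf1 (0.91 and 0.92), Rxra for Igf2 (0.92), Tet3 for Igf1r (0.96), Cdc37 for Igfbp2 (0.97), Adck1 for Igfbp4 (0.96), Olfr1156 for Igfbp5 (0.94), Marchf9 for Cxcr4 (0.91), Tmem213 for Ackr3 (0.95) and Gm10076 for Cxcl12 (0.84). These are pooled values, each picked as among the highest over 16705 genes. Cdc37 with Igfbp2 was at 0.70 in the Kir2.1 and 0.98 in the PEA libraries alone, and Adck1 with Igfbp4 at 0.64 and 0.99. The other matches named were at 0.86 or above in each experiment. The libraries share their depth and dissection across genes, so all these correlations are a description of 14 libraries.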

How the data were processed

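Per the labels and the methods of the study, the authors made poly-A selected, unstranded single-end libraries for the Kir2.1 experiment and rRNA-depleted, stranded single-end libraries for the PEA experiment. The authors estimated transcript counts with Salmon 1.3.0, summed them per gene and normalized them with DESeq2 1.30.0, each experiment apart. The deposited values are this normalized signal per gene. The methods describe a reverse-stranded setting for all samples, and its effect on the unstranded libraries was not tested. The values are not whole reads (under 10% of those above 0 were whole multiples of the commonest value in any library, within 0.001), so no count test was run.

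The groups were compared with limma 3.58.1 (R 4.3.3) on log2(value + 1) of genes whose mean within the experiment was at least 10, by moderated statistics with a trend of variance on mean and no covariate, with Benjamini-Hochberg adjustment over all genes tested and a threshold of 0.05. The fit was tested on simulated data. Single genes were also compared by exact permutation of the mice, two-sided. Python 3.11.15 with pandas 2.3.3 and scipy 1.17.1 did the rest. Of the 51211 symbols, 96.0% were found in GENCODE vM21. Each library is 1 pup, and litters are not given per pup, so p-values measure the spread between these mice. The study put the odor vial in a home cage with the mother and her pups, so exposure was given per cage. The cage of each pup is not given, so the PEA p-values do not measure the spread between cages. Cage or litter and exposure cannot be told apart here. The members, the lists and the rule for named genes (all members, up to 3 genes a list by the smallest unadjusted p under 0.05, and the genes most like each member) were chosen with earlier results of these data known. Igf2r, Igf1os and Igf2os were added for their relation to IGF2 and to the loci. Some genes that the rule names are not reported here.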

Additional observations from a re-analysis of the deposited data

How the results depend on the processing

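No member had an adjusted p under 0.05 in the main fit or in any of the alternatives, which were another pseudocount (0.5 or 5), another filter (none, or a mean of at least 50), no trend, robust moderation, array weights, 2 other scalings (quantile or median), a replicate block, covariates, and each mouse left out. The lowest adjusted limma p were 0.0948 for Igfbp4 (Kir2.1) and 0.0785 for Igfbp2 (PEA). The count of all genes called in the Kir2.1 experiment, 70 in the main fit, was 20 without a trend, 9 with the replicate block, 23 with the vomeronasal receptor covariate, 44 with the Xist covariate and 23 to 44 with 1 mouse left out. In the PEA experiment, 31 became 52 without a filter, 117 with array weights, 19 with the vomeronasal receptor covariate and 19 to 43 with 1 mouse left out. The replicate block left 5 Kir2.1 members and 1 PEA member at an unadjusted p under 0.05, as in the main fit. Across genes, mice with the same number had correlated residuals only at -0.06 to 0.16 (Kir2.1) and -0.05 to 0.13 (PEA), so the numbers were not taken as pairs, although number 3 was the mouse low in Xist in both Kir2.1 groups. The Kir2.1 members at an unadjusted p under 0.05, 5 in the main fit, were 3 with the vomeronasal receptor covariate and 3 to 7 with 1 mouse left out (3 without control 1 or control 2, and 7 without control 3), and those without overlap were 5 to 7. For PEA both counts were 1 with any mouse left out. Without the 3 libraries high in vomeronasal receptor RNA, chosen after seeing the data, 2 members did not overlap. Groups of fewer mice separate more easily. The share of all genes without overlap was not taken for these smaller sets, Kir2.1 or PEA, so their counts are not read against it.

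Signs turned only for differences near 0. For Kir2.1 these were Ackr3 (0.0155 with array weights, 0.0036 with quantile normalization, 0.0287 with the vomeronasal receptor covariate, 0.0039 with the Xist covariate, -0.12 to 0.069 with 1 mouse left out), Cxcr4 (0.0058 with quantile normalization, -0.086 to 0.11) and Igf1r (-0.14 to 0.029). For PEA these were Cxcl12 (-0.034 with median centring, -0.0086 to 0.048), Igf1r (-0.022 with median centring, -0.061 with the vomeronasal receptor covariate and -0.058 without the libraries high in it, -0.13 to 0.13), Igf2 (-0.063 without those libraries, 0.00029 to 0.18) and Igfbp3 (-0.0073 to 0.16). With 1 mouse left out, other PEA differences kept their sign but moved by over 1.5 times: Igfbp4 (0.15 without control 3, to 0.48), Igf1 (-0.37 to -0.13, the latter without exposed mouse 2), Cxcr4 (0.11 without exposed mouse 2, to 0.30), Ackr3 (0.091 without control 3, to 0.28) and Igfbp5 (-0.19 to -0.074, the latter without control 4). The cause of these shifts was not tested. Depth is not known, so no counting error could be given.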
